A study of Mus musculus with 27 samples.

Results

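The genes described here are 10 members of the interleukin-1 system, found by symbol among the 9996 genes of the deposited table; all 10 were present. They are the ligands Il1a, Il1b and Il18, the antagonists Il1rn, Il1r2 and Il18bp, the receptor subunit Il1rap, and the inflammasome genes Nlrp3, Casp1 and Casp4.

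IL-1β and IL-18 are made as inactive precursors that caspase-1, the product of Casp1, cuts into active cytokines. Caspase-1 is switched on by inflammasomes, protein platforms built around sensors such as NLRP3, and Casp4 encodes the mouse caspase (caspase-11) that responds to bacterial lipopolysaccharide inside the cell. Both IL-1 ligands signal through a receptor that needs the accessory subunit encoded by Il1rap; Il1rn encodes a receptor antagonist, Il1r2 a decoy receptor, and Il18bp a secreted protein that captures IL-18. Neutrophils and macrophages are known sources of IL-1 in inflamed tissue and in tumours. The libraries measured transcripts, not the cut proteins.

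RNA came from macrophages and neutrophils sorted by flow cytometry out of mammary tumours that arose in K14cre;Cdh1F/F;Trp53F/F mice. In these mice Cre driven by the keratin 14 promoter deletes E-cadherin and p53 in epithelium, and all 8 groups share this genotype; the deletion is aimed at the tumour's own lineage, not at leukocytes. Macrophages gave 2 libraries after both cisplatin and anti-CSF-1R (below, the combination), 2 after anti-CSF-1R, 4 after cisplatin plus control antibody (below, cisplatin) and 4 after control antibody alone. Neutrophils gave 4, 4, 3 and 4 libraries in the same order. Anti-CSF-1R blocks the receptor for the growth factors that maintain most macrophages, and cisplatin crosslinks DNA. Tissue was taken 1 day after injection number 2 where cisplatin was given, and at a tumour size of 100 mm2 where it was not. Endpoint and cisplatin therefore cannot be told apart. Ages are not given in the labels. Replicates are numbered by sample order and the numbers pair nothing. The labels do not say whether each library had its own mouse, and the p-values cover only the scatter among libraries, part of which may be technical.

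Each value is a whole number of reads scaled by 1 factor for its library, as the values show, and is called the level below. The restored reads of a library summed to 999381 to 3283312 in neutrophils and 1298467 to 7497277 in macrophages. Many deposited values had lost their decimal point, and its place was restored as described under the processing; 17 of the 270 values of the 10 genes had a place with a probability under 0.95 and were left out of means and tests. Restoration used the groups that the tests then compared, which the p-values do not take into account. The sorted identity held in most markers. All 19 neutrophil markers tested were lower in control macrophages than in control neutrophils. Csf3r, the G-CSF receptor of neutrophils, was at 93.1 to 399 in the 12 macrophage libraries and 4843 to 12863 in the 15 neutrophil libraries. Of 16 macrophage markers 15 were higher in control macrophages, Adgre1 (F4/80) among them, and 1, Cd14, was lower (log2 difference -2.89). Csf1r was higher in control macrophages. After the combination it overlapped between the cell types, at 1126 and 1180 in macrophages and 606 to 1248 in neutrophils. In neutrophils, replicate 2 of the combination and replicate 2 of cisplatin stood apart, with summed levels of the neutrophil markers of 148400 and 135100, against at most 80740 in the other 13 libraries. In anti-CSF-1R macrophages, replicate 2 carried mast cell transcripts (Tpsab1 at 4467), which replicate 1 did not (1.69, a restored value of uncertain place). In bulk libraries like these, fewer cells of a type and less RNA per cell cannot be told apart.

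Between the cell types, 8 of the 10 genes differed under control antibody: 7 were lower in macrophages than in neutrophils and Il18bp was higher. Of all 9903 genes tested 51.4% passed, 24.8% lower and 26.6% higher in macrophages (limma, Benjamini-Hochberg adjusted p under 0.05 over all genes). Il1b, which encodes IL-1β, had a level of 440, 294, 1237 and 2196 in control macrophages and 15053, 17128, 11527 and 15255 in control neutrophils. The groups did not overlap, and the highest macrophage library stayed far below the lowest neutrophil library. The difference was -4.24 ± 0.58 on the log2(level + 1) scale (SE, adjusted p = 1.37e-06, n = 4 and 4, limma).

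The other genes with lower levels in macrophages were the ligand Il1a, the antagonists Il1rn and Il1r2, the receptor subunit Il1rap, and Nlrp3 and Casp4. Il1a averaged 149 ± 11.4 in control macrophages (SD, n = 2 of 4 libraries, 2 left out) and 1480 ± 658 in control neutrophils (SD, n = 4). Il1rn averaged 1927 ± 793 in control macrophages and 10400 ± 2237 in control neutrophils (SD, n = 4 each), the smallest of the 7 differences at -2.49 ± 0.39 (SE, adjusted p = 9.71e-06, limma). The groups of these 7 did not overlap in the libraries used, which for Il1r2 were also 2 of the 4 of control macrophages. The 7 were picked by the test on the same values, and the share of all genes without overlap was not counted. Il1rap was at 45.2 to 66.8 in the 4 control macrophage libraries and 690 to 1616 in the 4 control neutrophil libraries (log2 difference -4.09 ± 0.27, adjusted p = 9.48e-12, limma). Nlrp3 was at 188 to 458 in control macrophages and 4017 to 5989 in control neutrophils, and its log2 difference of -4.13 ± 0.34 was close to that of Il1b (adjusted p = 3.06e-10, limma). The log2 differences of Il1a, Il1r2 and Casp4 were -3.19, -3.96 and -2.82, with adjusted p-values of 3.34e-05, 2.94e-05 and 4.77e-09 (limma).

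The remaining pair did not follow this pattern. Il18 was at 12.4 and 25.7 in the 2 control macrophage libraries used and at 20.4 and 25.0 in the 2 control neutrophil libraries used, and these ranges overlapped. Casp1 was at 47.5 to 78.7 in control macrophages and 26.7 to 90.7 in control neutrophils, with overlapping groups. Neither passed the test. Il18bp ran the other way, at 71.6 and 221 in control macrophages (2 libraries left out) and at 38.5, 38.4, 35.2 and 16.7 in control neutrophils. The 2 values left out were most probably lower than both 71.6 and 221, so the comparison covers only the libraries used. In these the log2 difference was 2.01 ± 0.48 (SE, adjusted p = 0.00152, limma). That call rested on macrophage control replicate 4: without it the log2 difference was 1.2 and the adjusted p 0.0885 (limma). With decimal places restored without the groups it was 1.69, with an adjusted p of 0.052 (limma).

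After the combination the same 7 genes, Il1a, Il1b, Il1rn, Il1r2, Il1rap, Nlrp3 and Casp4, were lower in macrophages than in neutrophils, beside 46.9% of 9776 genes that passed in either direction and 24% that passed lower. Il1b was at 1407 and 2241 in the macrophages and 17099, 67729, 16451 and 20066 in the neutrophils. Casp4 had the smallest of these 7 differences, at -1.82 ± 0.34, against -2.82 ± 0.27 under control antibody (SE, limma). Il18bp, at 310 and 382 in combination macrophages and 168 to 453 in combination neutrophils, overlapped between the cell types.

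**Figure D1:**
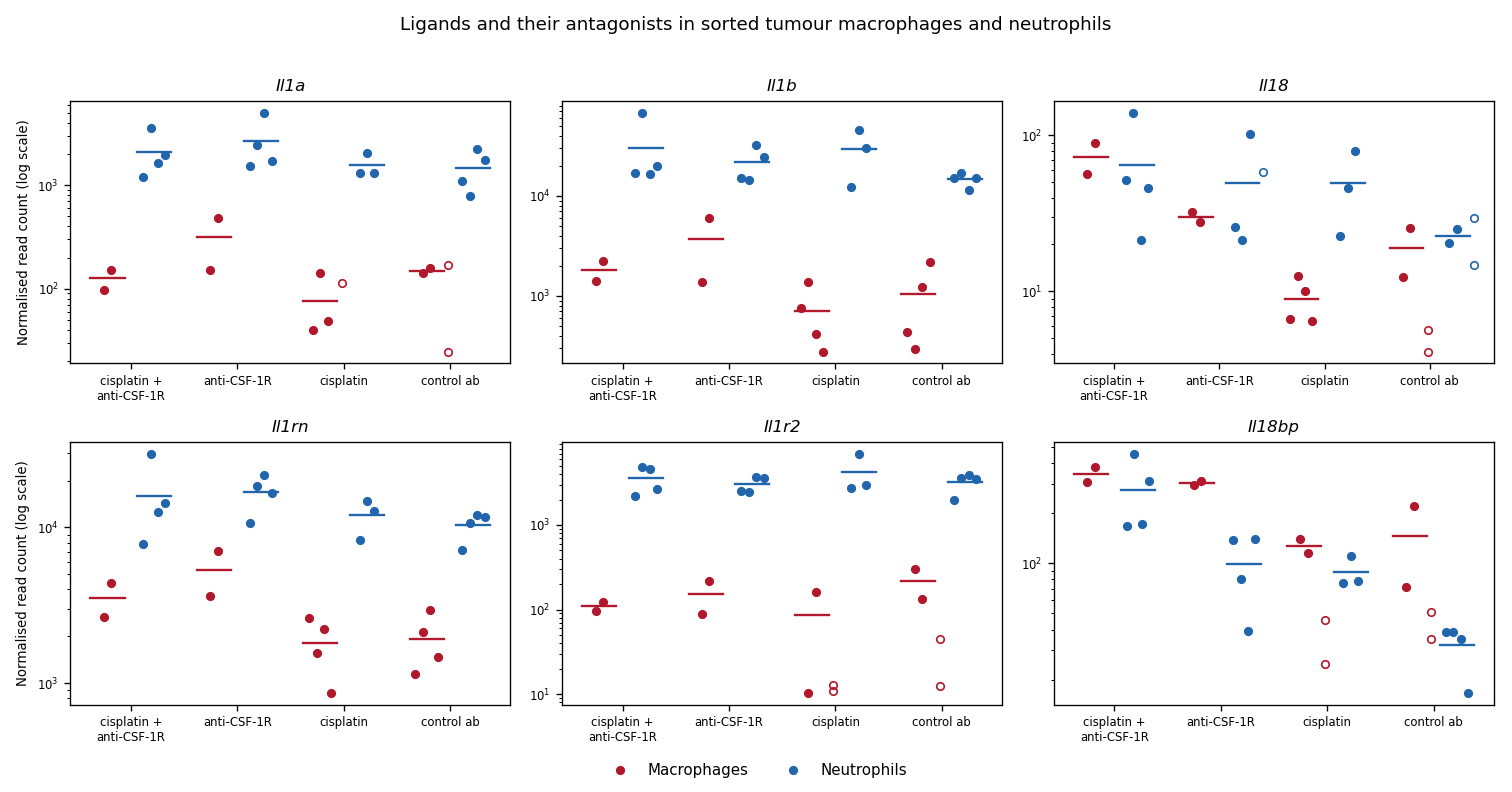
Level (normalised read count, log axis) of 3 ligands (top) and 3 antagonists (bottom) in every library of sorted macrophages (red) and neutrophils (blue) by treatment; bars are means of the filled points, and open points are values of uncertain decimal place that were left out. Among the filled points, Il1a, Il1b, Il1rn and Il1r2 separate the cell types in all 4 treatments and Il18 does not. Il18bp is lowest in control neutrophils among them, at 16.7 to 38.5.

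Across the 4 treatments the order of Il1b levels was combination, cisplatin, anti-CSF-1R and control in neutrophils, and anti-CSF-1R, combination, control and cisplatin in macrophages. Neighbouring treatments overlapped in both orders, and for Il1b the step between cell types was the only one without overlap. The same held for Il1a, Il1rn, Il1r2, Il1rap and Nlrp3. Per kilobase of exon, Il1b was the most abundant of the 10 genes in each of the 4 neutrophil groups (10900 ± 1720 per kb in controls, SD, n = 4), followed by Il1rn, Il1r2, Nlrp3 and Il1a in every neutrophil group. Il18, Il18bp and Casp1 filled the last 3 places in each neutrophil group. In macrophages Il1b and Il1rn held the first 2 places in every group, and Il1rap the last.

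The question of the treatment comparisons was how blocking CSF-1R, alone or with cisplatin, changed the cells left in the tumour. In neutrophils, 1 of the 10 genes passed between the combination and control: Il18bp was higher. Of 9125 genes tested 1.22% passed, and 0.975% passed as higher. Il18bp had a level of 168, 453, 173 and 314 in combination neutrophils and 38.5, 38.4, 35.2 and 16.7 in control neutrophils. All 4 combination libraries lay above all 4 control libraries. The log2 difference was 3.01 ± 0.40 (SE, adjusted p = 0.00129, limma), and it rested on 81 to 458 reads a library in the combination and 18 to 26 in controls. The call ended when decimal places were restored without the groups (2.69, adjusted p = 0.0985) or when values with several places were left out (2.69, adjusted p = 0.173, limma).

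Each single treatment lay between these groups for Il18bp. The level was 139, 80.2, 39.4 and 141 in anti-CSF-1R neutrophils and 75.8, 110 and 78.4 in cisplatin neutrophils. Every library of both single treatments was above the highest control library and below the lowest combination library. Against control, the log2 difference was 1.51 ± 0.40 for anti-CSF-1R (adjusted p = 0.166) and 1.48 ± 0.43 for cisplatin (adjusted p = 0.322; SE, limma), and neither passed. The combination was higher by 1.51 ± 0.40 than anti-CSF-1R (adjusted p = 0.199) and by 1.54 ± 0.43 than cisplatin (adjusted p = 0.158; SE, limma), which did not pass either. In these comparisons none of the 10 genes passed, beside 0.153% of all genes for anti-CSF-1R against control, 0.121% for cisplatin against control, 0.0548% for the combination against anti-CSF-1R and 0.285% for the combination against cisplatin. At an unadjusted p under 0.05 there were 1, 1, 1 and 2 of the 10 genes in these 4 comparisons, beside 9.78%, 8.46%, 10.6% and 9.79% of all genes.

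Markers listed for other cells stood beside the Il18bp values as follows. The summed level of 16 macrophage markers was 16340, 47150, 19250 and 20790 in combination neutrophils and 19270, 23850, 18100 and 16430 in control neutrophils, so the groups overlapped, and none of these markers passed the test. The 8 monocyte markers summed to 2866 to 9652 in combination neutrophils and 2716 to 6464 in control neutrophils. Cd14 of the macrophage list was lower in control macrophages than in control neutrophils (log2 difference -2.89), as were 5 of the 8 monocyte markers. These sums may therefore also hold the neutrophils' own transcripts. The part of other cells in the Il18bp values was not tested. Without the 2 neutrophil libraries that stood apart, the log2 difference of Il18bp was 2.74 ± 0.41 (SE, adjusted p = 0.0161, limma), while the count of all genes called fell to 7, against 111 with them.

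Il18bp lies on chromosome 7 (GENCODE vM21, GRCm38, 102014885 to 102018690, minus strand), and 80 of its exonic bases overlap Numa1 on the opposite strand. No strand-specific step is named for these libraries, so reads in that stretch cannot be assigned to one of the genes. The 250 bases before its RefSeq start are shown because it was the only one of the 10 genes called between treatments in neutrophils (GRCm38.p6, chr7:102018233-102018482, minus strand, written 5′ to 3′). This window lies within the GENCODE gene given above, so the RefSeq start is not the outermost GENCODE start. The capitals mark the only match found to any of 5 motifs searched on both strands, a C/EBP motif written TTGCNNAA, which lies 49 to 42 bases before the start.
Il18bp: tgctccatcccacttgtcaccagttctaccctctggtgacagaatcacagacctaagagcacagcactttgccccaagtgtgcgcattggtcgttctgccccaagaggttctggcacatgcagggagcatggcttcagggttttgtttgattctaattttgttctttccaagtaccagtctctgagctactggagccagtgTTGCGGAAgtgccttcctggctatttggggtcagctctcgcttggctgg
Of 32851 RefSeq promoter windows of the same length 9.56% hold a TTGCNNAA match, so its presence here is a description of the letters and not of a bound site. The other motifs searched were the interferon-stimulated element, GAAA followed by GAAA after any 2 bases (in 2.98% of windows), the GAS element TTCNNNGAA (7.02%), the ETS/IRF element, GGAA followed by GAAA after any 2 bases (2.3%) and the NF-kB consensus (3.9%). The interferon-stimulated and ETS/IRF letters can share bases.

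The other 9 genes did not pass between combination and control neutrophils. All 10 log2 differences were above 0, with a median of 0.63, against a median of 0.03 and 52.3% above 0 over all genes tested. The sign was not stable for the small ones: under quantile normalisation Il1rn, Il1r2, Il1rap and Nlrp3 turned negative (-0.27, -0.34, -0.08 and -0.39), and Il1r2 did so under further settings. Casp1, which encodes caspase-1, had the largest difference after Il18bp. Its level was 110, 192, 73.5 and 161 in combination neutrophils and 26.7, 39.9, 66.6 and 90.7 in control neutrophils. The ranges overlapped between 73.5 and 90.7, and the log2 difference of 1.3 ± 0.42 did not pass (SE, adjusted p = 0.128, limma).

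Il1b was at 17099, 67729, 16451 and 20066 in combination neutrophils, at 15267, 14519, 32441 and 24262 in anti-CSF-1R neutrophils, at 12376, 45289 and 30048 in cisplatin neutrophils, and at 15053, 17128, 11527 and 15255 in control neutrophils. The 2 highest values belong to the libraries that stood apart, and control neutrophils were the most even group. The log2 difference between combination and control was 0.77 ± 0.47 (SE, adjusted p = 0.433, limma), and 0.29 ± 0.34 without those 2 libraries (adjusted p = 0.791). Il1rn, the antagonist, was at 7798 to 29536 in combination neutrophils, 10732 to 21638 in anti-CSF-1R neutrophils, 8349 to 14884 in cisplatin neutrophils and 7156 to 12039 in control neutrophils. All 4 ranges overlapped. Il1r2, the decoy receptor, was at 2176 to 4900 in combination neutrophils and 1977 to 3873 in control neutrophils, and Nlrp3, the sensor, at 4516 to 7445 and 4017 to 5989 in the same groups. Il1a was at 1208 to 3562 in combination neutrophils and 789 to 2259 in control neutrophils (log2 difference 0.50 ± 0.39, adjusted p = 0.557, limma), and the difference was 0.206 without combination replicate 2, the lowest value with single libraries left out.

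Il18 had low levels in neutrophils, at 52.0, 139, 21.2 and 46.0 after the combination and at 20.4 and 25.0 in the 2 control libraries used. These overlapped. Il1rap was at 906 to 1615 in combination neutrophils and 690 to 1616 in control neutrophils, nearly the same range. Casp4 was at 954 to 1702 in combination neutrophils, 502 to 929 in cisplatin neutrophils and 437 to 1177 in control neutrophils. The combination and cisplatin ranges did not overlap, but the log2 difference of 0.85 ± 0.34 did not pass (SE, adjusted p = 0.391, limma).

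**Figure D2:**
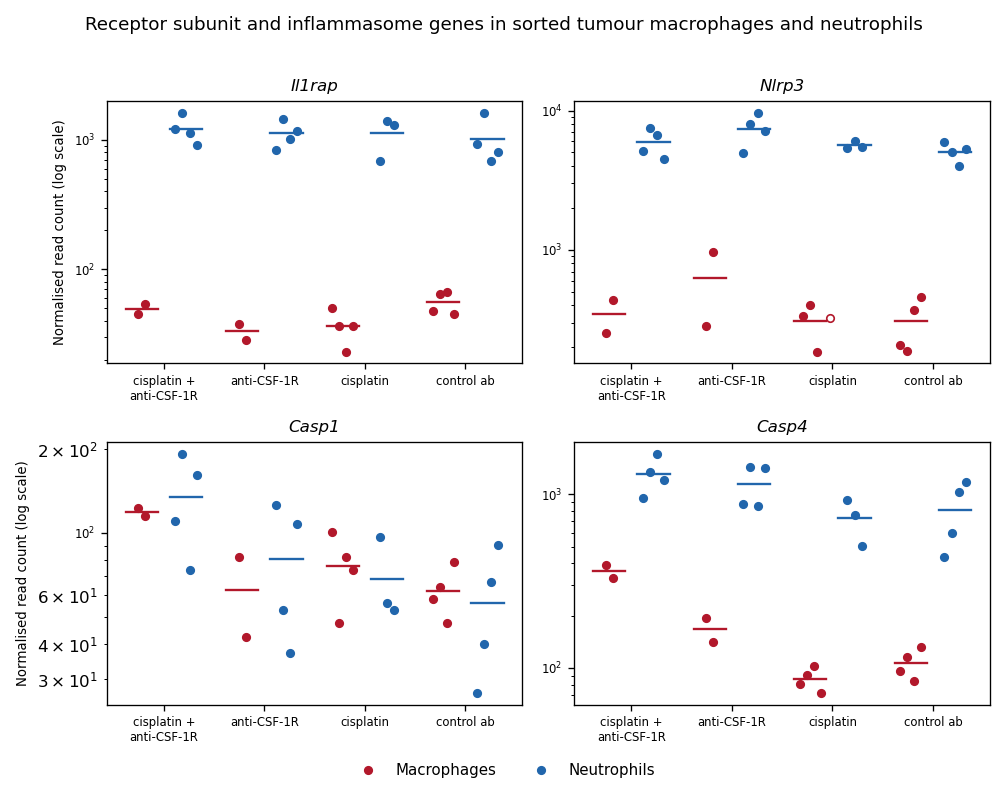
Level (normalised read count, log axis) of the receptor subunit Il1rap and of 3 inflammasome genes in every library of sorted macrophages (red) and neutrophils (blue) by treatment; bars are means of the filled points, and the open point was left out. Casp4 in combination macrophages (330 and 393) is above all other macrophage libraries (71.8 to 193), while Casp1 overlaps between the cell types.

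In macrophages, 2 of the 10 genes passed between the combination and control, and the same 2 between the combination and cisplatin: Casp4 and Il18 were higher. Of 9081 genes 3.3% passed in the first comparison (1.52% as higher) and 4.02% in the second (1.83% as higher). Casp4 was at 393 and 330 in combination macrophages, 193 and 141 in anti-CSF-1R macrophages, 81.2, 90.8, 103 and 71.8 in cisplatin macrophages, and 96.2, 115, 84.0 and 131 in control macrophages. Both combination libraries were above all others, and the anti-CSF-1R libraries came next, without overlap. The log2 difference was 1.77 ± 0.24 against control (adjusted p = 0.00187) and 2.06 ± 0.24 against cisplatin (adjusted p = 0.000985; SE, n = 2 and 4, limma). Against anti-CSF-1R it was 1.12 ± 0.28, which did not pass (adjusted p = 0.247, limma).

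The Casp4 calls depend on where the decimal point of combination replicate 1 belongs. Both 393 and 39.3 give whole reads there, and the model that uses the gene's groups gave 393 a probability of 0.994. With places restored without the groups it became 39.3, and the log2 difference was 0.08 against control (adjusted p = 0.964) and 0.41 against cisplatin (adjusted p = 0.818, limma). The value of combination replicate 2, 330, has only 1 admissible place, and without replicate 1 Casp4 still passed against control (adjusted p = 0.0415) and against cisplatin (adjusted p = 0.0193, limma).

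Il18 was at 56.9 and 89.5 in combination macrophages, 32.2 and 27.7 in anti-CSF-1R macrophages, 6.65, 12.5, 10.1 and 6.48 in cisplatin macrophages, and 12.4 and 25.7 in the 2 control libraries used. The combination was highest and cisplatin low, and the combination overlapped with no other macrophage group. The log2 difference was 2.91 ± 0.39 against cisplatin (adjusted p = 0.00259, n = 2 and 4) and 1.94 ± 0.45 against control (adjusted p = 0.0351, n = 2 and 2; SE, limma). The left-out control values were most probably 4.12 and 5.68, but 41.2 and 56.8 were the next places, and with those the difference from control was 1.24 and did not pass (adjusted p = 0.174, limma). Leaving out either combination library or control replicate 3 also ended the call against control, at adjusted p-values of 0.108, 0.349 and 0.175. Leaving out combination replicate 2 ended the call against cisplatin (log2 difference 2.59, adjusted p = 0.0749, limma).

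Markers listed for other cells also differed between these macrophage groups. The summed level of 19 neutrophil markers was 2467 and 2832 in combination macrophages, 708 to 1183 in cisplatin macrophages and 758, 768, 2489 and 849 in control macrophages; Camp and Cxcr1 were listed at 1 in both combination libraries. Of the 14 neutrophil markers tested, 2 were higher and 1 lower in combination than in control macrophages. Against cisplatin macrophages 4 of the 14 were higher and 0 lower, namely Mmp8, Retnlg, S100a9 and S100a8, at log2 differences of 3.68, 3.04, 2.57 and 2.24 (adjusted p = 0.0204, 0.0104, 0.00617 and 0.00443, limma). In neutrophils the same sum was 39600 to 148400, and Casp4 was at 437 to 1702 there. Of 8 monocyte markers 4 were higher in combination than in control macrophages, with Ly6c2 at a log2 difference of 6.6 (adjusted p = 2.79e-05, limma) and Plac8 (4.34) and Chil3 (3.55) also among them; the summed level of the 8 was 4010 and 4536 in combination macrophages and 2059 to 5936 in control macrophages. Of 3 genes of the eosinophil list tested, 2 were higher, Ear1 and Ear2, at log2 differences of 5.25 and 5.77. The 5 genes of that list in the table summed to 98.5 and 217 in combination macrophages and 6.75 to 20.9 in control macrophages. Between the cell types after the combination, Ear1 and Ear2 were higher in macrophages than in neutrophils (3.22 and 3.07). Siglecf, Ccr3 and Ear6 of the same list were lower there (-3.87, -3.71 and -2.97). Against cisplatin macrophages 3 monocyte markers were higher and 1 lower, and Ear1 and Ear2 were higher by 4.82 and 5.79. The cisplatin libraries summed to 6214 to 14660 for the monocyte list and 6.66 to 9.94 for the eosinophil list. Csf1r itself was lower in combination than in control macrophages (log2 difference -0.92, adjusted p = 0.0478, limma). Whether these transcripts came from other cells or from the macrophages themselves was not tested. The part of other cells in the Casp4 and Il18 values was not tested either.

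Casp4 and Il18 both lie on chromosome 9 (GENCODE vM21, GRCm38; Casp4 at 5308828 to 5336783 and Il18 at 50554827 to 50581840, both plus strand). Their RefSeq promoter windows of 250 bases are shown because they are the 2 genes that passed in macrophages (GRCm38.p6, chr9:5308599-5308848 for Casp4 and chr9:50554450-50554699 for Il18, 5′ to 3′). RefSeq lists a further Casp4 start just downstream, whose window holds the same matches. The Casp4 capitals mark 2 overlapping matches to the NF-kB consensus, which begin 93 and 92 bases before the start. The Il18 window holds none of the 5 motifs, and its start was not among the GENCODE transcript starts.
Casp4: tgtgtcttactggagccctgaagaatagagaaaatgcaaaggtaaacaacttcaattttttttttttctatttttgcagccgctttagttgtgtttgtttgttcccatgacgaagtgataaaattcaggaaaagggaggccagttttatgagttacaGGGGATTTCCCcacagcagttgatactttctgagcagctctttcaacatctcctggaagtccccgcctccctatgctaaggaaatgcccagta
Il18: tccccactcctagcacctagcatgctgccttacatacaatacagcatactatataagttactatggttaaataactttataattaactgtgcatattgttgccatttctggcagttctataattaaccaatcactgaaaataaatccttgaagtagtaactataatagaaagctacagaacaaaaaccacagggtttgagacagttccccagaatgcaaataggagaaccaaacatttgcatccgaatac
An NF-kB consensus match stands in 3.9% of all 32851 windows.

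The other 8 genes did not pass between combination and control macrophages. Il18bp was at 310 and 382 in combination macrophages, 296 and 313 in anti-CSF-1R macrophages, 141 and 115 in the 2 cisplatin libraries used, and 71.6 and 221 in the 2 control libraries used. The combination and anti-CSF-1R libraries were all above the 2 used of cisplatin and the 2 used of control. The 4 left-out values had next places of 458 and 248 in cisplatin and 513 and 349 in control, which would overlap with them. The combination differed from control by 1.44 ± 0.43 (adjusted p = 0.106) and from cisplatin by 1.43 ± 0.43 (adjusted p = 0.0977; SE, n = 2 each, limma), short of the threshold. With the left-out values at their second place these differences were 0.57 (adjusted p = 0.68) and 0.73 (adjusted p = 0.557, limma). The difference from control also turned on single libraries: without control replicate 4, at 221, it was 2.25 and passed (adjusted p = 0.00421), and without control replicate 3, at 71.6, it was 0.635 (limma). The difference from cisplatin passed without control replicate 3 or 4 (1.43, adjusted p = 0.0245 and 0.0131, limma), and Il1r2 passed there without cisplatin replicate 2 (3.27, adjusted p = 0.0137, limma). Casp1 was at 122 and 115 in combination macrophages and 57.7, 64.1, 47.5 and 78.7 in control macrophages. The groups did not overlap, and the log2 difference of 0.95 ± 0.32 did not pass (SE, adjusted p = 0.128, limma).

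Of the 10 genes, 4 had an unadjusted p under 0.05 between combination and control macrophages, beside 18.4% of all genes. The median of the 10 log2 differences was 0.93 between combination and control, and 1.19 between combination and cisplatin, where all 10 were above 0; over all genes these medians were -0.00434 and -0.00894. Leaving out single libraries turned the sign of Il1r2 and Nlrp3 in the comparison with cisplatin, and restoring places without the groups turned that of Il1a (-0.20).

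**Figure D3:**
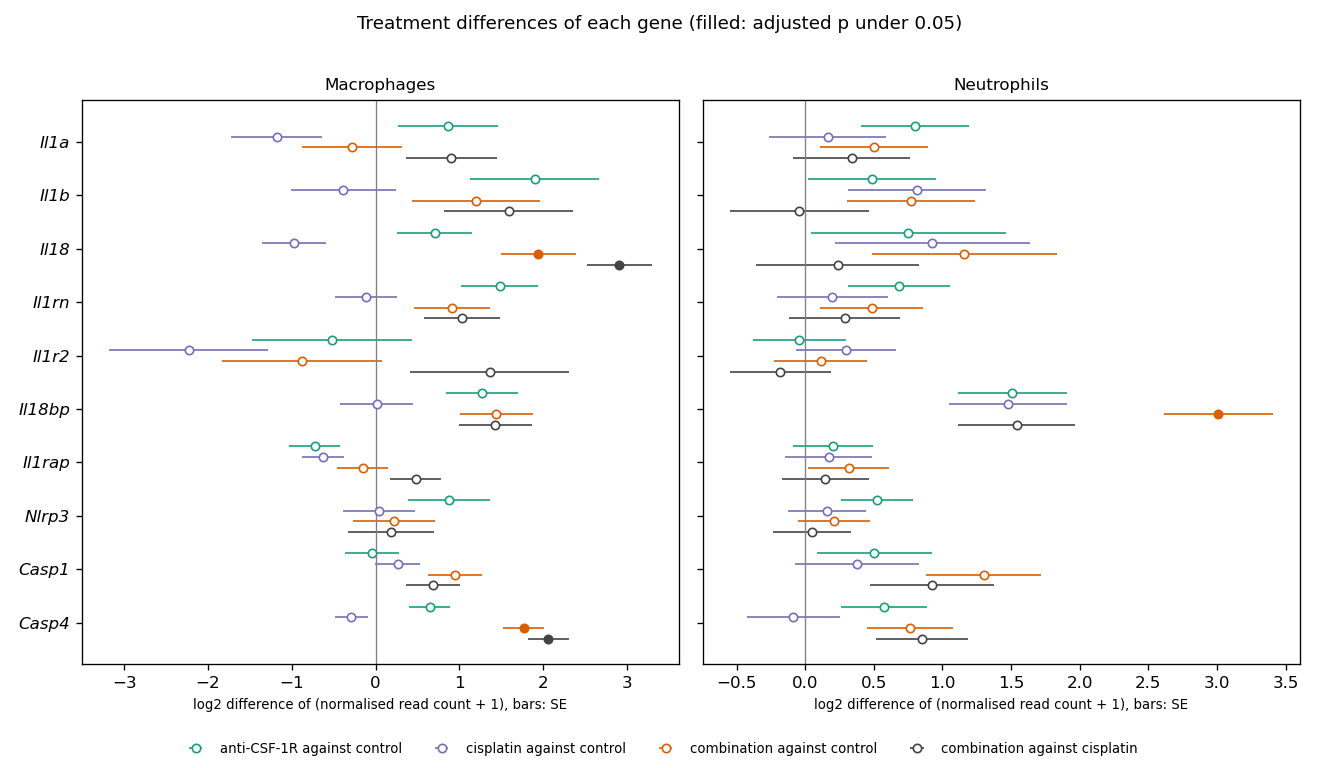
Log2 difference (level + 1) of each gene between treatments in macrophages (left) and neutrophils (right), with the SE as bars; filled points passed at an adjusted p under 0.05 over all genes. The filled points are Il18bp in neutrophils (3.01) and Il18 (1.94 and 2.91) and Casp4 (1.77 and 2.06) in macrophages.

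Anti-CSF-1R alone did not move any of the 10 genes past the threshold in macrophages, beside 3.95% of 9100 genes. At an unadjusted p under 0.05 there were 5 of the 10, beside 21.7% of all genes. Il1rn was at 3612 and 7088 in anti-CSF-1R macrophages and 1143, 2142, 2941 and 1483 in control macrophages. Both treated libraries were above all 4 controls, with a log2 difference of 1.48 ± 0.46 (SE, adjusted p = 0.0814, limma). Il1b was at 1378 and 6039 in anti-CSF-1R macrophages and 294 to 2196 in control macrophages, which overlapped (log2 difference 1.90 ± 0.77, adjusted p = 0.165, limma). It was 2.97 without anti-CSF-1R replicate 1 and 0.838 without replicate 2 (adjusted p = 0.769, limma). The value of 6039 is that of replicate 2, the library with mast cell transcripts, whose Il1a (484, against 153 in replicate 1) and Nlrp3 (966, against 285) were also the higher; the part of those cells was not tested. Il18bp differed from control by 1.27 ± 0.43 (adjusted p = 0.125) and Casp4 by 0.65 ± 0.24 (adjusted p = 0.14; SE, limma). Without control replicate 4, Il18bp passed at 2.07 (adjusted p = 0.00773), without control replicate 3 it was 0.46 (adjusted p = 0.489), and with left-out values at their second place 0.396 (adjusted p = 0.759, limma). The Casp4 difference was 0.421 without anti-CSF-1R replicate 1 (adjusted p = 0.429, limma).

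The combination and anti-CSF-1R macrophages did not differ in any of the 10 genes past the threshold, beside 0.0445% of 8985 genes, and 3 of the 10 had an unadjusted p under 0.05, beside 9.56% of all genes. Casp1 was at 122 and 115 in combination macrophages and 82.2 and 42.4 in anti-CSF-1R macrophages, without overlap (log2 difference 0.99 ± 0.37, adjusted p = 0.438, limma), and the difference was 0.525 without anti-CSF-1R replicate 2. Cisplatin alone moved none of the 10 in macrophages, beside 0.511% of 9206 genes, with 3 at an unadjusted p under 0.05, beside 10.3% of all genes. Il1b was at 753, 1376, 416 and 278 in cisplatin macrophages and 440, 294, 1237 and 2196 in control macrophages. Il1rn was at 867 to 2604 in cisplatin macrophages and 1143 to 2941 in control macrophages. Both genes overlapped throughout.

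Whether the combination acted differently in the 2 cell types was tested as the difference between the log2 differences. None of the 10 passed for the combination against control (0.0307% of 9776 genes did) or against cisplatin (0.235% of 9771 genes), and 2 of the 10 had an unadjusted p under 0.05 in each, beside 8.5% and 11% of all genes. For Il18bp the neutrophil difference from control exceeded that of macrophages by 1.57 ± 0.68 (adjusted p = 0.515; 0.766 without macrophage control replicate 4 and 2.38 without replicate 3), and for Casp4 it fell short, at -1.0 ± 0.43 (adjusted p = 0.508; SE, limma). The Il18bp call in neutrophils and the Casp4 and Il18 calls in macrophages are therefore not shown to differ between the cell types.

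The ratio of ligand to antagonist was described per library, with each gene taken per kilobase of exon. The lengths join all annotated exons of a gene, 1356 bases for Il1b and 2706 for Il1rn. Where a library lies against a ratio of 1 depends on these lengths. Il1b over Il1rn had a median of 3.59, 2.87, 4.68 and 2.90 in combination, anti-CSF-1R, cisplatin and control neutrophils, and all 15 neutrophil libraries were above 1. In macrophages the medians were 1.04, 1.23, 0.608 and 0.804 in the same order, with libraries from 0.274 to 2.96. The ranges of the 4 treatments overlapped within neutrophils. In macrophages cisplatin and control overlapped throughout.

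**Figure D4:**
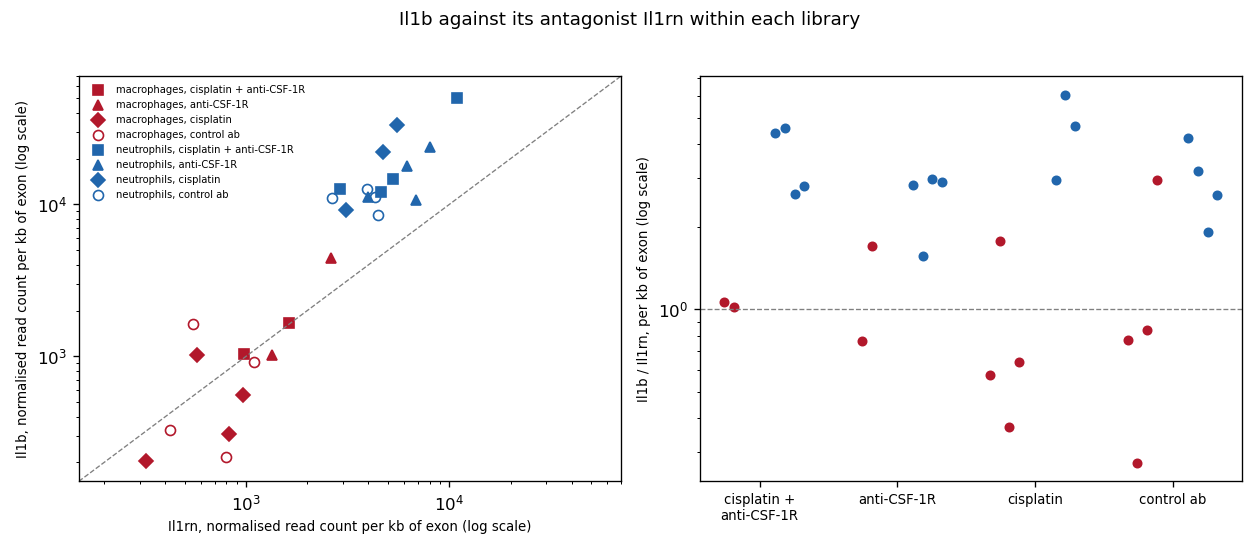
Left, Il1b against its antagonist Il1rn in every library (level per kb of exon, both axes log; dashed line, equal levels); right, the ratio of the same values by treatment (log axis), macrophages in red and neutrophils in blue. All neutrophil libraries lie above a ratio of 1, at 1.57 to 6.07, and macrophage libraries on both sides of it.

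Of 59 other genes listed for the pathway (receptors and ligands, signalling, inflammasome, processing proteases), 41 were in the table. The neutrophil proteases Elane, Prtn3 and Ctsg were not found in it by symbol. In neutrophils, 1 of the 40 tested passed between combination and control, beside 1.22% of all 9125 genes. This was Naip6, which encodes a member of the NAIP family of inflammasome sensors, at 66.5, 48.4, 65.3 and 49.4 in combination neutrophils and 31.1, 16.3, 12.95 and 16.7 in control neutrophils. The groups did not overlap (log2 difference 1.59 ± 0.32, adjusted p = 0.0237, limma). The Naip genes are near-identical copies, so how the authors' counting split their reads is uncertain. Over the 40, 31 log2 differences were above 0, with a median of 0.37, against 52.3% above 0 and a median of 0.03 over all genes. None of the list passed in the other 4 neutrophil comparisons, where 0.0548% to 0.285% of all genes did.

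In macrophages, none of the 37 list genes tested passed between combination and control, nor between combination and cisplatin, beside 3.3% and 4.02% of all genes. Between anti-CSF-1R and control 4 of 35 passed, all higher, beside 3.95% of 9100 genes that passed in either direction. They were Il1rl1, the IL-33 receptor (log2 difference 5.91), Il1r1, the signalling IL-1 receptor (3.24), and the NF-kB feedback genes Nfkbia (1.76) and Nfkbiz (1.79, with overlapping groups), with adjusted p-values of 0.000707, 0.0123, 0.0244 and 0.0432 (limma). The first 2 rest on 1 library: replicate 1 was left out, and replicate 2, at 319 for Il1rl1 and 135 for Il1r1, is the one with mast cell transcripts. Il1rl1 was also the single list gene called between combination and anti-CSF-1R macrophages (-4.82, adjusted p = 0.0495, limma), on the same library.

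Between cell types under control antibody 28 of 41 list genes passed, 24 lower and 4 higher in macrophages, beside the 51.4% of all genes that passed. The IL-18 receptor chains were among the most different. Il18rap was at 2.75, 3.24, 12.4 and 3.91 in control macrophages and 475, 519, 500 and 589 in control neutrophils (log2 difference -6.51 ± 0.39, adjusted p = 4.22e-12, limma). Il18r1 was listed at 1 in 3 control macrophage libraries and at 46.3 to 62.1 in control neutrophils. Il1f9, which encodes IL-36γ, was at 49.8 and 55.4 in combination macrophages and 2455 to 5868 in combination neutrophils. Nlrp12, a regulator related to NLRP3, and Txnip, a NLRP3-binding protein, were also lower in macrophages (-5.00 and -3.65, adjusted p = 1.58e-11 and 1.46e-12, limma).

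The genes whose pattern was most like that of Il1b over the 27 libraries were Tpd52, Cxcl2, Litaf, Nfkbiz and Atp11b, with Pearson r from 0.974 to 0.983 among 4826 genes restored in every library. Within the 15 neutrophil libraries they were Zfp617, Cxcl2, Ptgs2, Zfp36 and Picalm (r from 0.923 to 0.966, among 5991 genes). For Il1rn over the 27 libraries they were Ptpre, Rab11fip1, Tgoln1, Prdx6 and Tnfrsf1b (r from 0.953 to 0.961), none of them among the 5 nearest to Il1b. These correlations are descriptions: the points share libraries, depth and the 2 libraries that stood apart, and over 27 libraries the difference between the cell types.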

How the data were processed

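The deposited values are a signal in which reads step by 1 factor for each library; the authors' scaling is read from the numbers, not from a header. Per the submitters' processing notes the tools named are CASAVA 1.8, TopHat2 2.0.11, Partek 6.6, R 3.3.1 and DESeq2, with build mm10; their roles and order are not stated there. Per the labels' protocols, libraries came from 10 ng of total RNA with Ovation RNA-seq V2 and Encore Rapid kits on a HiSeq 1500.

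Values carry 6 significant digits, and where 3 or more decimals stood the point was lost. Places were restored by requiring whole reads of each library's step (largest deviation 0.0246 reads), which left several places for 67.1% of 269892 values, and by a negative binomial model over each gene's groups. The 4.82% with a probability under 0.95 were left out. A level under 1 is listed as 1. The model used the same groups that the tests then compared, and the p-values do not account for this. Restored without the groups, calls between combination and control went from 111 to 6 in neutrophils and from 300 to 104 in macrophages. Between cell types under control antibody they went from 5092 to 4970. How far the use of the groups lowered the p-values was not tested. The design was written for such linear normalised values and its test was kept. The restoration and the fit were checked on simulated data. There, 0.151% of kept neutrophil values and 0.126% of kept macrophage values were wrong. Between combination and control, 10 of 89 calls in neutrophils and 8 of 53 in macrophages were false. Between combination and cisplatin these were 12 of 73 and 12 of 68. Of planted 2-fold changes 2% to 8% were recovered, and of 4-fold changes 42% to 71%. Genes that did not pass may therefore still differ.

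Genes at 10 or more in at least 2 libraries of the fit were tested on log2(level + 1), which understates the change of low genes, with limma 3.58.1 (lmFit, eBayes with trend, two-sided) in R 4.3.3; p-values were Benjamini-Hochberg adjusted over all genes, threshold 0.05. The 4 groups of a cell type shared a fit, and all 8 groups did for comparisons between cell types. The remaining work ran in Python 3.11.15 (pandas 2.3.3, numpy 2.4.6, matplotlib 3.10.9, scipy 1.17.1). Lengths and positions are from GENCODE vM21; promoters are RefSeq's (GRCm38.p6), searched on both strands. Summed marker levels use the most probable place of every value.

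The members and lists were chosen with earlier results of these data known. The text names every member, list genes past the threshold (at most 6 a comparison, smallest p first), and the 5 genes most like Il1b and Il1rn; those nearest to Il1rn within neutrophils are not reported here.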

Additional observations from a re-analysis of the deposited data

Results flagged for a closer look

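A single library far from the rest of its group was looked for in 40 sets of 4 values, each 1 gene in 1 group. Of these, 2 were found. Chance flags about 1 in 20 sets, so the number found is about what chance would give. Il1b in combination neutrophils had its highest value, 67729, in replicate 2, far from the other 3 libraries at 16451 to 20066. That library also had the highest summed level of neutrophil markers. Il18bp in control neutrophils had its lowest value, 16.7, in replicate 4, against 35.2 to 38.5 in the other 3. Its next admissible place is 167, and the restored place had a probability of 0.983. The Il18bp difference between combination and control neutrophils includes that value.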

How the results depend on the processing

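No paired analysis was possible because the labels carry no replicate numbers. Counts of the 10 genes called that moved by over 1.5 times were as follows. With places restored without the groups, or with only values of 1 admissible place, neutrophil combination against control gave 0, and in macrophages the combination gave 0 against control and 1 against cisplatin. Combination against control macrophages gave 1 without a filter on low values, 1 with only the groups compared in the fit, 4 with array weights, and 1 with left-out values at their second place, an alternative chosen after seeing the data. Array weights gave 6 for combination against cisplatin macrophages and 1 for its difference between cell types. Leaving out single libraries gave 1 to 3 for combination against control macrophages, 1 to 3 for combination against cisplatin, 0 to 1 for anti-CSF-1R against control (1 without control replicate 4), 0 to 1 for cisplatin against control (1 without cisplatin replicate 2), and 0 to 1 for the difference between cell types against cisplatin (1 without macrophage cisplatin replicate 2). The cause was not tested, except that fewer values or samples enter the fit where values or libraries are left out.

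The Il18bp call in neutrophils kept its direction under all alternatives, at 2.73 to 3.21 with single libraries left out, and did not pass where places were restored without the groups (2.69, adjusted p = 0.0985) or only values of 1 place were used (2.69, adjusted p = 0.173, limma). Casp4 in macrophages did not pass with values of 1 place only (1.42, adjusted p = 0.113, against control; 1.68, adjusted p = 0.101, against cisplatin). Without the groups its difference from anti-CSF-1R macrophages turned to -0.52 and its difference between cell types to 0.68. The Il18 call between combination and control macrophages also ended without a filter, with only the groups compared, without the groups in the restoration and with values of 1 place (adjusted p = 0.0586, 0.0594, 0.0618 and 0.134, limma). Over all genes, calls between combination and control neutrophils numbered 111, against 6 without the groups, 0 with values of 1 place, 70 with median ratio scaling, 69 with limma-voom and 7 without the 2 libraries that stood apart. Between combination and control macrophages they numbered 300, against 104, 30 and, with array weights, 859; between combination and cisplatin macrophages 365, against 119, 62 and 1628, and 628 with only the groups compared. Between anti-CSF-1R and control macrophages they numbered 359, against 143, 17, 126 with array weights, 141 with limma-voom and 110 with only the groups compared. Single libraries left out gave 6 to 177, 18 to 653, 10 to 587 and 45 to 612 in these 4 comparisons. Uncalled signs that turned were, in combination against control neutrophils, Il1rn (-0.27), Il1r2 (-0.34), Il1rap (-0.0798) and Nlrp3 (-0.393) under quantile normalisation, and Il1r2 under median ratio scaling (-0.0243), array weights (-0.0376), without the 2 libraries that stood apart (-0.0653, chosen after seeing the data) and with single libraries left out (-0.106 to 0.325). In combination against cisplatin macrophages they were Il1a (-0.20) without the groups, Il1r2 without cisplatin replicate 1 (-0.558 to 3.27 over single libraries), and Nlrp3 without combination replicate 2 or cisplatin replicate 4 (-0.2 to 0.569).

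Limits: 2 groups of macrophages hold 2 libraries each, and many low values have several admissible places.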
